A study of Caenorhabditis elegans with 2 samples.

Results

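The weak peaks shared by both replicates of an NHR-179 ChIP-seq experiment in Caenorhabditis elegans are 2141 of 9583 nuclear peaks called on the pooled replicates, or 22.9% of the 9350 outside the optimal list. They are the pooled peaks whose summit had a partner within 100 bp in the peak list of replicate 2 and another in that of replicate 3. Peaks within 100 bp of a summit of the authors' optimal list were left out. That list was thresholded on reproducibility between replicates and holds the 256 peaks of highest pooled signal. Only 233 of them are nuclear, at pooled ranks of 24 to 256, and those ranked above these are mitochondrial. Shares of optimal peaks given below are of the 233. The members were chosen by their presence in 3 peak lists, hence by measured values, and their signals, ranks and summit distances are given as description only. The peaks set against them were the 1216 nuclear pooled peaks outside the optimal list with no partner in either replicate list, called unpartnered peaks here. Chromatin immunoprecipitation with sequencing (ChIP-seq) with an anti-GFP antibody was carried out on strain OP465, with the genotype unc-119(tm4063) III; wgIs465, in which NHR-179 is fused at the C terminus to GFP-FLAG. Whole young adults, all hermaphrodites, were taken 64 hours after they had been synchronized by starvation at the L1 stage. The 2 samples, replicates 2 and 3, are biological replicates of this 1 group, so that no other genotype, stage or treatment is compared, and an untagged strain was not analysed here.

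Nuclear hormone receptors are transcription factors of a family that is greatly expanded in this worm, and NHR-179 belongs to it. A peak list deposited before reproducibility filtering deliberately holds weak regions and background, so that peaks can be ranked and their recurrence measured. A summit is the base of highest enrichment in a peak. The strongest nuclear regions of this experiment, the nuclear optimal peaks, were often at genes of small non-coding RNAs. Such genes were therefore looked for at the weaker shared peaks. Transfer RNA (tRNA) genes are short and are transcribed by RNA polymerase III from a promoter inside the gene, made of an A box and a B box. Small nucleolar RNAs (snoRNAs) guide chemical modification of ribosomal RNA, and small nuclear RNAs (snRNAs) act in splicing and, in nematodes, in the addition of spliced leaders. Cuticle collagens, a large worm gene family, are built of short repeats that begin with glycine, often followed by proline.

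The sequences shown are those around the summits of members that stand for the main kinds of site, on the ce11 build (WBcel235) and read 5′ to 3′ on the strand of the named gene. The first 4 reach 100 bp to either side of the summits of the strongest members at tRNA genes without an untranslated exon in the window, with the bases of the tRNA gene in capitals. F38G1.t1 is a tRNA-Thr gene at chrX:487718-487918, plus strand. C16C8.t1 is a tRNA-Lys gene at chrII:3439370-3439570, minus strand. T26C11.t1 is a tRNA-Glu gene at chrX:1858675-1858875, plus strand, and K06A4.t1 is a tRNA-Ala gene at chrV:9503451-9503651, plus strand. The windows of C16C8.t1 and T26C11.t1 hold the B box core GGTTCGA in exactly these letters, and those of F38G1.t1 and K06A4.t1 do not.
F38G1.t1: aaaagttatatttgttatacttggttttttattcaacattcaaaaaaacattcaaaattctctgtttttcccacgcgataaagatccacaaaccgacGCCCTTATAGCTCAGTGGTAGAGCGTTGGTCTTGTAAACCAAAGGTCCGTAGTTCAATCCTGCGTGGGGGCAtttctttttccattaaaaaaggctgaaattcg
C16C8.t1: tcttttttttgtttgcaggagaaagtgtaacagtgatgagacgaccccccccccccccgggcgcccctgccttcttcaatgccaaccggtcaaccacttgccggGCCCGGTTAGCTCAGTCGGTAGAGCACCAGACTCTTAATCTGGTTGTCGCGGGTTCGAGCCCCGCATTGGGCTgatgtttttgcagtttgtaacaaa
T26C11.t1: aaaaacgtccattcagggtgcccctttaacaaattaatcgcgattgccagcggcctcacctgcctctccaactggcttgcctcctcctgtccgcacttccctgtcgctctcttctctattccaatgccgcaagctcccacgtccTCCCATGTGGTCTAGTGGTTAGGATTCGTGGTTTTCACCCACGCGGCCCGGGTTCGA
K06A4.t1: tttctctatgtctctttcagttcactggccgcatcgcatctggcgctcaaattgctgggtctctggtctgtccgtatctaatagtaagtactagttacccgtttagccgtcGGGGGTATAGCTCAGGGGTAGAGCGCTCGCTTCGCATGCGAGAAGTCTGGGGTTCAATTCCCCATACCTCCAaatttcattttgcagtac
The next 2 windows, and those after them, reach 50 bp to either side. They are those at the snoRNA gene C16D9.11, at chrV:8228945-8229045, minus strand, and at the snRNA gene sup-39, at chrII:6968344-6968444, minus strand, again with the bases of the gene in capitals.
C16D9.11: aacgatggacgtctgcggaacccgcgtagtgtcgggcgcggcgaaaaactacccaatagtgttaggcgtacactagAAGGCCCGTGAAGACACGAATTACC
sup-39: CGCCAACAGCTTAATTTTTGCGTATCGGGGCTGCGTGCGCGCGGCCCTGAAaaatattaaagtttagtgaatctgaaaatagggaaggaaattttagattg
Members at collagen genes are represented by the coding windows of col-181 at chrX:12105513-12105613, col-19 at chrX:422313-422413 and col-164 at chrX:2094096-2094196, all on the plus strand. Capitals mark the word GGACCA, which in frame encodes glycine and proline.
col-181: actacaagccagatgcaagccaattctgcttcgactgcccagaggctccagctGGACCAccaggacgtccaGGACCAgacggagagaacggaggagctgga
col-19: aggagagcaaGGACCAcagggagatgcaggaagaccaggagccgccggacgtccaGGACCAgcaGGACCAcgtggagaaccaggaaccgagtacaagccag
col-164: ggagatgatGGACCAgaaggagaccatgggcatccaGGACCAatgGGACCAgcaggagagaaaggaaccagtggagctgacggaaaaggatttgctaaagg
The last window is the strongest intergenic member away from small RNA genes, downstream of xbp-1 at chrIII:4195433-4195533, plus strand, and has no capitals because no motif that was called occurs in it.
xbp-1: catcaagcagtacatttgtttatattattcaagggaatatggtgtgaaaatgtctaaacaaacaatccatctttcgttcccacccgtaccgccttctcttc

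By the rule the members lay below the optimal peaks in signal. Their pooled signal, a value deposited by the authors whose scaling is not stated, was 30.1 at the lowest, 44.2 at the median and 74.6 at the highest. Unpartnered peaks ran from 30.1 over a median of 32.5 to 59.4, and optimal peaks started at 74.7. The deposited −log10 q-value of members was 0.0188 at the lowest, 0.259 at the median and 1.70 at the highest, against a median of 0.0418 in unpartnered peaks and of 2.48 in optimal peaks. All members were 444 bp wide. In the pooled ranking they ran from place 257 to place 9561. That no member reached the signal of the weakest optimal peak follows from the rule, since the optimal list holds the highest pooled peaks. The −log10 q-values overlapped a little, since the lowest of an optimal peak was 1.66.

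The 2 replicates gave the members moderate and only loosely related signals. In the list of replicate 2, which holds 12866 peaks, the partner summits had signals of 16.01 at the lowest, 21.8 at the median and 56.0 at the highest. In the list of replicate 3, which holds 13745 peaks, they had 15.7, 20.9 and 61.1. The median rank was 4537 in replicate 2 and 5052 in replicate 3. Spearman's rho between the replicate signals was 0.185 over the 2141 members, which share their libraries and were selected on presence in both lists. Among the members, 27 had a partner within the top 256 peaks of replicate 2, 29 within the top 256 of replicate 3, and 1 within both. For the top 5000 these counts were 1148, 1059 and 636. The optimal peaks, which the rule removed, had median ranks of 153.5 in replicate 2 and 149 in replicate 3, so the counts of members at the top are shaped by the rule.

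**Figure D1:**
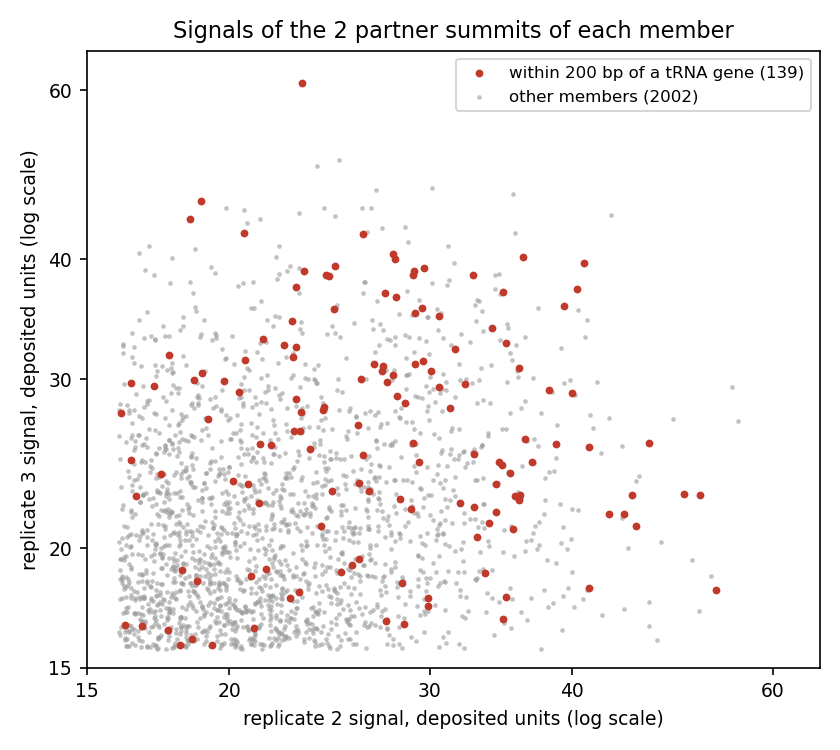
Signal of the partner summit in replicate 2 (x axis) and in replicate 3 (y axis), in deposited units on log scales, 1 point per member; red points are the 139 members within 200 bp of a tRNA gene and grey points the others. The points fill a broad cloud with a rho of 0.185. Red points are not evenly spread in it. Their medians were 27.6 in replicate 2 and 25.96 in replicate 3, against 21.8 and 20.9 over all members.

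The rule placed each member summit within 100 bp of a summit in both replicate lists. The median distance from a member summit to its partner was 15 bp in replicate 2 and 18 bp in replicate 3. For peaks with a partner in only 1 list it was 10 bp in replicate 2 and 12 bp in replicate 3. The replicate summits of members lay a median of 42 bp from each other. They were within 20 bp of each other for 625 members (29.2%). At the edge of the distance limit, the 160 members whose farther partner lay 91 to 100 bp away had a median pooled signal of 42.5. The 134 peaks just outside, with the farther summit up to 10 bp beyond the limit, had a median of 41.98. Both edges thus held peaks of similar signal. Members stood mostly alone, with a median of 10877 bp to the next member, and 151 (7.05%) had another member within 1000 bp.

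Sharing between replicates followed the pooled signal. The pooled peaks were called on the same 2 replicates, so the 2 measures are not independent and their relation is description only. Of the 9350 nuclear pooled peaks outside the optimal list, 22.9% were members. Of all 9350, 54.8% had a partner in replicate 2 and 55.1% had one in replicate 3. Of those with a partner in replicate 2, 41.8% also had one in replicate 3, against 71.2% of those with none in replicate 2. The list was called on both replicates pooled, and the cause of this order was not tested. When the 9350 peaks were put in 10 equal bins by signal, members made up 70.1% of the highest bin, 48.6% of the next and 1.82% of the lowest. Unpartnered peaks went the other way, with 1.60% of the highest bin and 31.4% of the lowest. Of the members, 1885 were in the upper 50% by signal. The shares of all peaks that lay near tRNA genes or in GC-rich windows also fell with signal: 14.1% of the highest bin lay within 200 bp of a tRNA gene, against 0.856% of the lowest, and 63.9% against 41.2% had 40% GC or more. Signal, sharing, tRNA genes and GC content thus moved together in these lists.

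**Figure D2:**
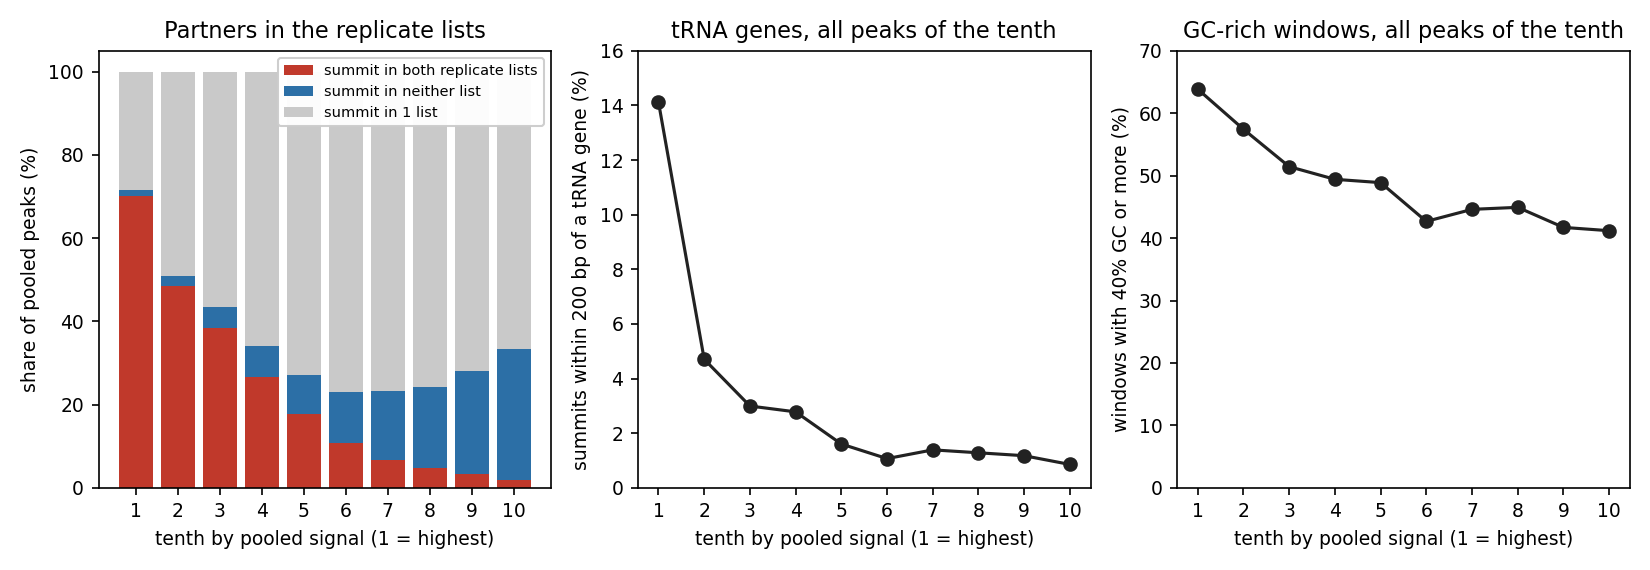
The 9350 nuclear pooled peaks outside the optimal list in 10 bins by pooled signal, the highest at left (x axis). The left panel stacks the share (%) of peaks with a partner in both replicate lists, in neither and in 1; the others give the share (%) of all peaks of the bin near a tRNA gene, and with at least 40% GC within 50 bp of the summit, which are 14.1% and 63.9% in the highest bin.

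Outside the rule, the clearest difference of the members from unpartnered peaks was their position at tRNA genes. A tRNA gene lay within 200 bp of the summit of 139 members (6.49%, exact 95% interval 5.49% to 7.62%) and of 15 unpartnered peaks (1.23%, 0.692% to 2.03%), a 5.26 times larger share (2-sided Fisher's exact test, adjusted p = 3.44e-13). Of nuclear bases, 0.272% lie that close to a tRNA gene. Peaks with a partner in only 1 replicate list had 2.42%, and optimal peaks 44.2%. With partners from the list of replicate 3 only, the shares were 3.98% of partnered and 2.24% of other peaks (adjusted p = 2.00e-05), and with the list of replicate 2 only 4.26% and 1.92% (adjusted p = 4.98e-10, both by Fisher's exact test), a smaller difference that still passed. The difference also passed in 40% GC or richer windows, with 8.38% of members and 1.93% of unpartnered peaks (adjusted p = 8.13e-07), and on autosomes alone, with 5.15% and 0.568% (adjusted p = 4.83e-10, both by Fisher's exact test). This was 1 of 3 features of the 13 compared that passed (23.1%). The tests count peaks and not animals or libraries, peaks are not independent replicates, and the intervals cover counting error over peaks only.

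The tRNA difference did not pass within bands of signal. Members still had the higher signals within the upper 50%, where the highest of the 10 bins held 655 of them and 15 unpartnered peaks and the lowest of these 5 bins 166 and 87. In the upper 50% by signal the shares were 7.06% of 1885 members and 2.94% of 238 unpartnered peaks (adjusted p = 0.127), and in the lower 50% they were 2.34% of 256 and 0.818% of 978 (adjusted p = 0.219, both by Fisher's exact test). Between the 40th and 60th percentile of signal, where all signals lay between 34.4 and 37.9, the order turned round, with 1.12% of 267 members and 1.49% of 202 unpartnered peaks (adjusted p = 1 by Fisher's exact test). In the highest of the 10 bins by signal, 14.5% of 655 members were near a tRNA gene and 0% of 15 unpartnered peaks. In the next bin the order was the other, with 4.19% of 454 members and 9.09% of 22 unpartnered peaks. Over all 935 peaks of each bin, with or without partners, the shares were 14.1% in the highest and 4.71% in the next. Members made up 70.1% of the highest bin and 48.6% of the next, and 95 of the 132 peaks near a tRNA gene in the highest. Their shares and those of all peaks are therefore not separate values. The part of signal in the difference was not tested beyond these values.

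The members at tRNA genes reached many of them. Of 612 nuclear tRNA genes, 145 (23.7%) had a member within 200 bp, 116 had an optimal summit, 6 had both and 15 had an unpartnered summit. A member or an optimal summit thus lay at 255 of the 612 genes (41.7%). Peaks with a partner in only 1 replicate list lay at 151 of the genes. The sets differ in size, with 2141 members, 5993 peaks with a partner in 1 list and 1216 unpartnered peaks. Of the 139 members, 55 had their summit inside the gene, 50 upstream of it and 34 downstream. Their partner signal was 16.1 at the lowest, 27.6 at the median and 53.5 at the highest in replicate 2, and 15.8, 25.96 and 61.1 in replicate 3, above the medians of all members in both. In 68 of the 139, the member ranked higher in replicate 2, so that neither replicate led. In 33 of the 139 (23.7%) the window of 50 bp to either side of the summit held GGTTCGA on either strand. Of the 139 windows, 35 were at least 50% repeated elsewhere in the genome in words of 32 bases, and how reads with several matches were placed is not given in the sources used here.

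The tRNA members carried most amino acid types. Glutamate, serine and threonine tRNAs had 13 genes each with a member, of 41, 39 and 34 genes. Arginine tRNAs had 12 of 44 and lysine tRNAs 11 of 46. Every amino acid type named in RefSeq had at least 2 genes with a member except selenocysteine, whose 1 gene had none. The X chromosome holds 276 of the tRNA genes, of which 64 (23.2%) had a member, against 21 of 71 (29.6%) on chromosome IV and 11 of 66 (16.7%) on chromosome I. Optimal summits were at 80 tRNA genes on X and 9 on IV.

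The members at F38G1.t1, C16C8.t1 and K06A4.t1 were even between replicates. F38G1.t1, a tRNA-Thr gene, had signals of 40.4 in replicate 2, 37.2 in replicate 3 and 74.3 in the pooled list, where it ranked 261. C16C8.t1, a tRNA-Lys gene, had 39.4, 35.8 and 74.3 in the same order. K06A4.t1, a tRNA-Ala gene in an intron of the sugar transporter gene swt-5, had 41.0, 39.6 and 73.7. Other tRNA members were uneven: the one at the tRNA-Arg gene F35H8.t1 had 50.2 in replicate 2 and 22.8 in replicate 3, and the one at the tRNA-Cys gene T28C12.t1 had 26.2 in replicate 2 and 42.5 in replicate 3. Both had a pooled signal close to the others, 73.3 for F35H8.t1 and 73.5 for T28C12.t1.

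Other small RNA genes were near few members, and neither the snoRNA nor the snRNA share passed the test. A snoRNA gene lay within 200 bp of 25 members (1.17%) and 6 unpartnered peaks (0.493%; Fisher's exact test, adjusted p = 0.129), against 18.03% of optimal peaks. An snRNA gene lay near 15 members (0.701%) and 3 unpartnered peaks (0.247%; Fisher's exact test, adjusted p = 0.148). These members reached 25 of 346 snoRNA genes, 16 of 129 snRNA genes, 9 of 261 microRNA genes and 11 of 194 long intergenic RNA genes. None of the 20 annotated rRNA genes had a member. Together, tRNA, snoRNA, snRNA and rRNA genes were near 8.36% of members and 1.97% of unpartnered peaks. Most members thus lay away from such genes.

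The strongest snoRNA and snRNA members showed both even and uneven replicates. The member with the highest pooled signal of all, 74.6, lay in a coding exon of C08D8.1, 149 bp from the snoRNA gene C08D8.3. It had 33.2 in replicate 2 and 29.9 in replicate 3. The one at the snoRNA gene C16D9.11, in an intron of rol-3, had 24.99 in replicate 2 and 50.7 in replicate 3. The one at Y38F2AR.14 had 51.8 and 17.2 in the same order, and the list of replicate 3 starts at 15.7. Among snRNA genes, sup-39 had 41.5 in replicate 2 and 27.5 in replicate 3, and sls-2.16, a spliced leader gene, had 32.3 and 29.99. The strongest microRNA member, at cel-mir-51, had 23.5 in replicate 2 and 22.7 in replicate 3.

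Members also lay in GC-richer sequence. Of the windows of 50 bp to either side of member summits, 1170 (54.6%) had at least 40% GC, against 517 (42.5%) of unpartnered windows (Fisher's exact test, adjusted p = 9.11e-11). Of all such windows of the nuclear genome, 29.0% reach it. The median GC content was 41.6% in members, 37.6% in unpartnered peaks and 48.5% in optimal peaks. By annotation, GC-rich windows made up 78.2% of members and 73.6% of unpartnered peaks in coding exons, 38.6% and 26.9% in introns, 45.2% and 30.2% between genes, 25.7% and 25% in untranslated exons, and 88.3% and 75% in non-coding RNA genes, given as description. The gap was widest between genes and smallest in untranslated exons.

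The GC difference varied with the replicate list used and did not pass within bands of signal. The GC-rich share was 54.6% with a partner in both lists, 51.2% in replicate 2 only, 44.2% in replicate 3 only and 42.5% in neither. When only the list of replicate 2 was used to define partners, 52.7% of partnered and 43.7% of other peaks were GC-rich (Fisher's exact test, adjusted p = 7.86e-17). When only the list of replicate 3 was used, the shares were 48.5% and 48.7% (Fisher's exact test, adjusted p = 0.868). The lists themselves differed likewise, with 48.7% GC-rich windows in replicate 2 and 42.02% in replicate 3. In the upper 50% by signal the order turned round, with 55.8% of members and 57.98% of unpartnered peaks (adjusted p = 0.766), and in the lower 50% the shares were 46.5% and 38.8% (adjusted p = 0.173, both by Fisher's exact test). The part of the base composition of each list in the difference was not tested beyond these values.

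Of the 5 annotation classes, the non-coding RNA genes alone differed between the sets by the test. Each summit counted once, with exons taken before non-coding RNA genes, these before introns and introns before intergenic sequence. Non-coding RNA genes took 145 members (6.77%) and 40 unpartnered peaks (3.29%), a difference that passed (Fisher's exact test, adjusted p = 5.72e-05). With summits near small RNA genes left out it was 3.62% and 2.77% and did not pass (Fisher's exact test, adjusted p = 0.311). It did not pass in either 50% by signal, with adjusted p = 0.766 in the upper and 0.577 in the lower, nor with partners defined by overlap of intervals (adjusted p = 0.23, all by Fisher's exact test). Coding exons took 29.8% of members and 28.0% of unpartnered peaks, introns 25.3% and 28.5%, and intergenic sequence 29.99% and 33.0%, with adjusted p-values from 0.129 to 0.396 by Fisher's exact test. Of nuclear bases, 24.6% are coding, 32.6% are intronic and 36.3% are intergenic. Repeated windows were 2.80% of members and 1.56% of unpartnered peaks, which did not pass (Fisher's exact test, adjusted p = 0.0783).

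**Figure D3:**
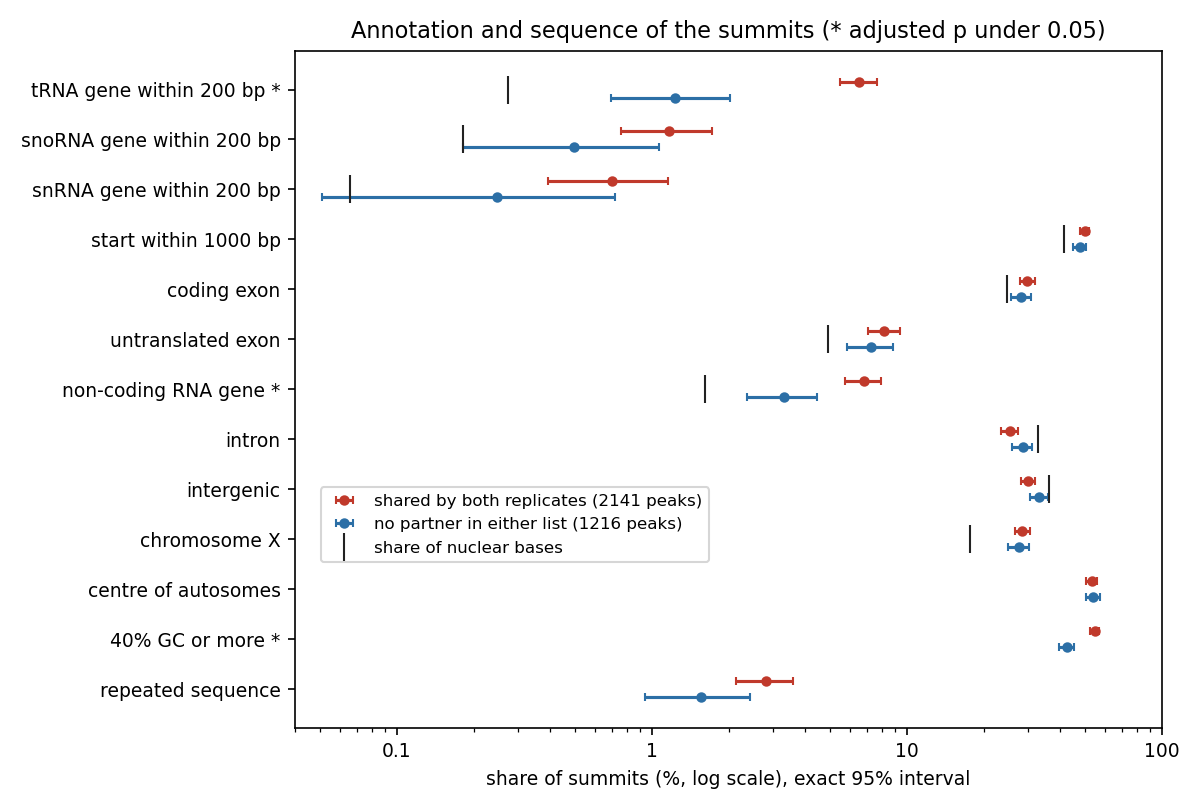
Share of summits (x axis, %, log scale) with each of the 13 features compared, for the 2141 members (red, upper point) and the 1216 unpartnered peaks (blue, lower point), with exact 95% intervals; black bars give the share of nuclear bases where it was computed. The tRNA intervals, 5.49% to 7.62% and 0.692% to 2.03%, lie apart, while those of introns and of the X chromosome overlap.

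Members were spread over all chromosomes, with the X chromosome holding a larger share than its length in both sets of weak peaks. It held 608 members (28.4%) and 335 unpartnered peaks (27.5%), a difference that did not pass (Fisher's exact test, adjusted p = 0.654), and it has 17.7% of nuclear bases. Of optimal peaks, 45.5% were on X. The autosomes shared the rest, with 439 members on V and 223 on I at the ends. On the autosomes, 53.2% of members were in the central 50% of the chromosome, against 53.9% of unpartnered peaks (Fisher's exact test, adjusted p = 0.735). The centre share changed sides with the replicate used. With partners from replicate 3 only it was 54.1% of partnered and 50.7% of other peaks (adjusted p = 0.022), and with partners from replicate 2 only 50.96% and 54.6% (adjusted p = 0.0104, both by Fisher's exact test).

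Around transcript starts the members formed a broad hump. A protein-coding start lay within 1000 bp of 1067 members (49.8%) and of 580 unpartnered peaks (47.7%; Fisher's exact test, adjusted p = 0.341), and 41.2% of nuclear bases are that close. With partner distances of 200 bp the shares were 50.02% and 41.9% and passed (adjusted p = 0.00172), and with partners by overlap of intervals they were 50.4% and 40.05% (adjusted p = 0.000229, both by Fisher's exact test). Of the 1067, 505 (47.3%) lay upstream of the start, with a median position 31 bp downstream. The 200 bp before the start and the 200 bp after it held 168 and 167 member summits, 7.85% and 7.80% of members, against 6.33% and 7.24% of unpartnered peaks. Neither side of the start stood out.

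**Figure D4:**
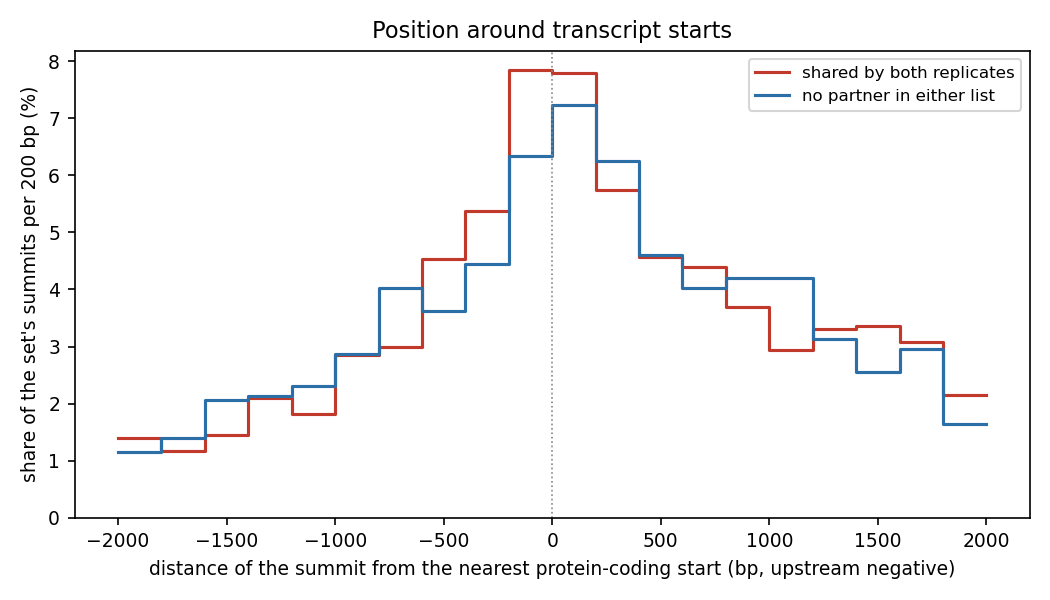
Share of summits (y axis, % of the set per 200 bp) by distance from the nearest protein-coding start (x axis, bp, upstream negative), for the members (red) and the unpartnered peaks (blue). Members reach 7.85% just upstream and 7.80% just downstream of the start, and the lines run close together farther out.

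Short sequence motifs separated the sets little. Of 16 motifs sought on either strand of the same windows, 2 passed (12.5%). The T run TTTTTTT was in 13.3% of members and 18.2% of unpartnered peaks (Fisher's exact test, adjusted p = 0.00184), and in 15.7% of all nuclear pooled windows. The B box core GGTTCGA was in 2.57% of members and 0.822% of unpartnered peaks (Fisher's exact test, adjusted p = 0.00184), in 16.3% of optimal peaks and in 1.97% of all. With summits near small RNA genes left out, GGTTCGA was in 1.07% and 0.755% (Fisher's exact test, adjusted p = 0.657), and neither motif passed in either 50% by signal or in windows of 30% to 45% GC. With partners from replicate 3 only GGTTCGA did not pass (adjusted p = 0.461), and with partners from replicate 2 only TTTTTTT did not (adjusted p = 0.246, both by Fisher's exact test). None of the core sites known for nuclear receptors passed. AGGTCA was in 2.94% of members and 2.71% of unpartnered peaks (adjusted p = 0.832), GGGTCA in 1.73% and 1.56% (adjusted p = 0.832) and AGTTCA in 5.51% and 4.52% (adjusted p = 0.398, all by Fisher's exact test). AGGTCA and GGGTCA differ only in the opening base, and a match or its absence in these windows says nothing of the binding of NHR-179.

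The other motifs did not pass. The A box core TGGCNNA, with any base at N, was in 16.35% of members and 15.87% of unpartnered peaks (Fisher's exact test, adjusted p = 0.832). The E-box CACGTG was in 2.71% of members and 1.40% of unpartnered peaks, and the GC box GGGCGG in 3.36% and 1.89% (Fisher's exact test, adjusted p = 0.0585 for each). TGATAA, the site of GATA factors such as those of the worm gut, was in 7.61% and 7.48% (Fisher's exact test, adjusted p = 0.946), against 7.79% of all nuclear pooled windows. Of all words of 6 bases, 0% passed on chromosomes I to III by Fisher's exact test, where 163 had an unadjusted p under 0.05, and none passed on IV, V and X, where 235 did. On IV, V and X 52 passed with partners from replicate 2 only and 58 in windows of 100 bp to either side, and none of these passed on I to III. The lowest p on I to III was that of ATGAGG, in 6.26% of 767 member windows and 1.40% of 430 unpartnered windows (adjusted p = 0.0747 by Fisher's exact test). On IV, V and X it was in 3.64% and 3.18%.

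The 30 members of highest signal, from 70.3 to 74.6, show the mixture. Of them 10 were near a tRNA gene, 4 near a snoRNA gene and 15 within 1000 bp of a protein-coding start, and 7 were on X. The partner ranked higher in replicate 2 in 14 of them. The member downstream of xbp-1, which encodes a bZIP factor of the unfolded protein response of the endoplasmic reticulum, had 35.6 in replicate 2, 42.6 in replicate 3 and 74.6 in the pooled list. The member in an intron of hif-1, the hypoxia-inducible factor, lay 119 bp downstream of the start and had 40.5 in replicate 2, 35.4 in replicate 3 and 71.3 in the pooled list. Both were of like height in the 2 replicates.

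Other members of the top 30 rested more on 1 replicate. The member in a coding exon of vit-2, a yolk protein gene, lay 2558 bp from the start and had 26.7 in replicate 2 and 45.3 in replicate 3. The member 277 bp downstream of the start of mai-1, a gene related to inhibitors of the mitochondrial ATPase, lay in an untranslated exon and had 19.9 and 45.2 in the same order, with ranks of 6409 in replicate 2 and 197 in replicate 3. The member at W06H8.6 had 55.3 in replicate 2 and 29.4 in replicate 3. By contrast, the member 46 bp from the start of pck-2, a phosphoenolpyruvate carboxykinase gene of gluconeogenesis, had 41.2 and 34.6. The member 34 bp upstream of madf-10 had 31.1 in replicate 2 and 41.3 in replicate 3.

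Named gene families differed in how many of their genes had a member. The start of 1000 of 19973 nuclear protein-coding genes (5.01%) was the nearest within 1000 bp of a member, and that of 565 (2.83%) the nearest to an unpartnered peak. The lists are described by these counts with no test. Of 174 collagen genes, 37 (21.3%) had a member, 5 (2.87%) an unpartnered peak and 3 an optimal peak. Of 23 heat shock genes 6 (26.1%) had a member and 2 (8.7%) an unpartnered peak. Muscle structure genes had 6 of 38 (15.8%) with a member and 4 (10.5%) with an unpartnered peak. Cytosolic ribosomal protein genes had 9 of 76 (11.8%) and 6 (7.9%), and homeobox genes 9 of 89 (10.1%) and 4 (4.49%). In the heat shock, muscle, ribosomal protein and homeobox lists the unpartnered share thus also lay above the 2.83% of all genes. Nuclear hormone receptor genes were near the background, with 14 of 274 (5.11%) and 8.

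Collagen members mostly lay inside the genes. Of the 37 summits, 33 (89.2%) were in coding exons, 4 were upstream of the start, and the median position was 622 bp downstream of it. In 35 of the 37 windows the GC content was at least 40%, with a median of 58.4%, and 23 of them (62.2%) held GGACCA on either strand, as shown for col-181, col-19 and col-164, against 4.34% of all members, 3.62% of unpartnered peaks and 3.63% of all nuclear pooled windows. The word was chosen after these windows were seen, and no share was computed for other collagen coding sequence. It thus describes collagen sequence and does not set the members apart from it. Collagen genes resemble each other in sequence, and 1 of the 37 windows was at least 50% repeated. In replicate 2 the partner signals of the 37 were 16.6 at the lowest, 22.3 at the median and 45.8 at the highest, and in replicate 3 they were 15.8, 22.6 and 42.6. These medians lie close to those of all members. The 5 unpartnered collagen peaks had 4 summits in coding exons, a median of 506 bp downstream and a median GC content of 63.4%.

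The 4 strongest collagen members lay above the upper quartile of all members' pooled signals, 51.7. That of col-181 had 28.6 in replicate 2, 31.5 in replicate 3 and 64.7 in the pooled list, 417 bp downstream of the start. That of col-19, an adult cuticle collagen gene, had 26.3, 37.9 and 60.9 in the same order, at 656 bp. That of col-164 had 28.0, 27.8 and 60.2, at 677 bp. The member of dpy-9, a cuticle collagen gene whose mutants are short and fat, had 34.3, 23.3 and 59.9, at 609 bp. All 4 lay within coding exons of 53.5% to 62.4% GC.

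**Figure D5:**
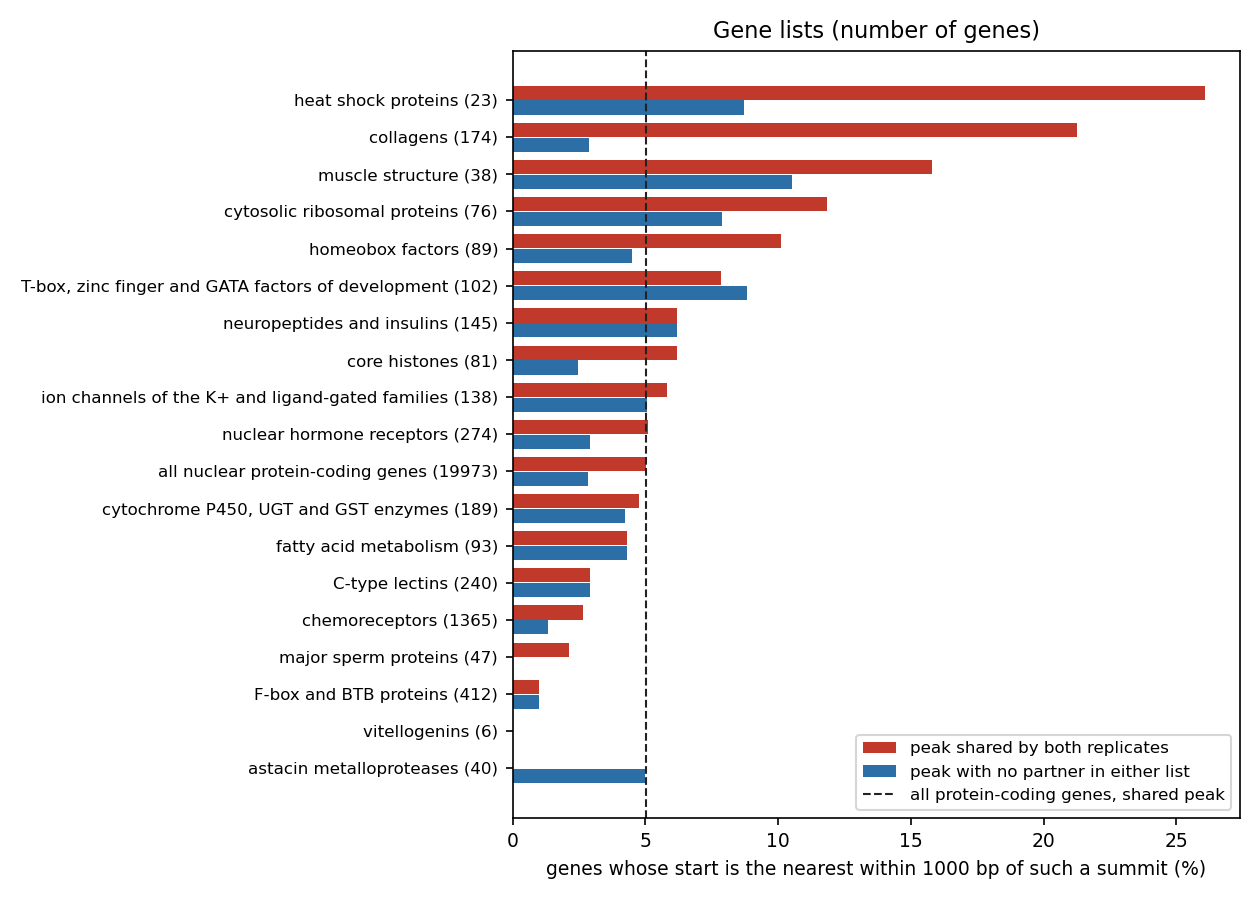
Share of genes (x axis, %) whose start is the nearest within 1000 bp of a member (red) or of an unpartnered peak (blue), for the 18 lists and all protein-coding genes, with the number of genes in brackets; the dashed line is the 5.01% of all genes. Heat shock genes (26.1%) and collagens (21.3%) have the longest red bars, and nuclear hormone receptors (5.11%) lie at the line.

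Members at heat shock, muscle and homeobox genes included summits close to the start. The member 9 bp upstream of the start of hsp-1, a constitutive HSP70 chaperone gene, had 29.1 in replicate 2, 32 in replicate 3 and 55.5 in the pooled list. That of hsp-25, a small heat shock protein gene, had 25.5, 16.9 and 54.9, at 733 bp upstream. The muscle list included act-4, an actin gene, with 29.8 in replicate 2, 32.9 in replicate 3 and 64.9 pooled, 38 bp upstream of the start, and unc-54, the major myosin heavy chain of body wall muscle, with 28.7, 23.5 and 49.8, 109 bp upstream. Of the 11 homeobox members 8 were upstream of the start, among them ceh-38, a ONECUT factor gene, with 34.6, 33.0 and 68.8 at 41 bp, and vab-3, the worm Pax6 gene, with 19.01, 34.6 and 58.5 at 57 bp. Of these, vab-3 differed most between the replicates.

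Nuclear hormone receptor genes with a member were led by nhr-193, nhr-217, nhr-41 and fax-1. The member of nhr-193 had 23.3 in replicate 2, 38.9 in replicate 3 and 62.1 pooled and lay 38 bp from the tRNA-Asn gene F57G8.t2. The member of nhr-41 had 34.3, 23.3 and 59.0 and lay in the tRNA-Glu gene Y104H12A.t1. That of nhr-217 had 30.1, 30.2 and 61.5, at 311 bp upstream of the start with no small RNA gene within 200 bp, and that of fax-1, a receptor of neuron identity and axon pathfinding, had 30.7, 25.1 and 55.02 in an intron. The list of 15 receptor members thus held 2 at tRNA genes. At nhr-179 itself, at chrV:1615723-1618860, no pooled peak of any kind had its summit in the gene or within 20000 bp, so that the tagged gene had no member.

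Ribosomal protein members included rpl-25.1, with 26.2 in replicate 2, 45.3 in replicate 3 and 69.0 pooled, and rps-16, with 32.1, 21.7 and 51.7, so that each was higher in another replicate. Of the remaining lists, most had close counts of genes with a member and with an unpartnered peak, core histones and chemoreceptors being exceptions. Over all 19973 genes the counts were 1000 and 565, so close counts fall short of the overall proportion. Developmental factors of the T-box, zinc finger and GATA list and related genes had 8 of 102 genes with a member and 9 with an unpartnered peak. Neuropeptide and insulin genes had 9 of 145 and 9, core histones 5 of 81 and 2, and ion channels 8 of 138 and 7. The enzyme and defence families, known for detoxification, lipid use and immunity, also had close counts. Enzymes of the cytochrome P450, UGT and GST families had 9 of 189 and 8, fatty acid metabolism 4 of 93 and 4, and C-type lectins 7 of 240 and 7. The large families of chemosensory and F-box genes lay under the 5.01% of all genes. Chemoreceptors, the largest list, had 36 of 1365 (2.64%) and 18, F-box and BTB genes 4 of 412 (0.971%) and 4, and major sperm protein genes 1 of 47 and 0. Astacin proteases had 0 of 40 and 2, and none of the 6 vitellogenin genes had a summit of either set within 1000 bp of its start.

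Some genes had both a member and an optimal peak, although the rule keeps the 2 kinds of summit more than 100 bp apart. Of the 1000 genes nearest to a member, 18 (1.80%) were also nearest to an optimal peak, which is 19.1% of the 94 genes nearest to optimal peaks, beside the 5.01% of all protein-coding genes with a member. Among the 1000, 61 had 2 or more members and the most at 1 gene was 3.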

How the data were processed

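The data were anti-GFP ChIP-seq peak lists of 2 biological replicates, numbered 2 and 3. The authors deposited peak lists for each replicate, for both pooled and, as an optimal list, after thresholding on reproducibility between replicates, on ce10 and ce11. Per the deposited file descriptions, the lists were made from aligned reads of each replicate and a further deposited alignment; the aligner, caller, versions and filters are not given in the sources used here. Each peak has a signal value and a −log10 q-value as the authors deposited them, with no scaling stated for the signal, so it served to rank and describe peaks only. The files hold no counts, and the depth is unknown.

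On ce11, summits were paired within 100 bp. Genes came from Ensembl release 115 for WBcel235, which has the chromosome lengths of ce11, and tRNA products from RefSeq, matched for 607 of 612 genes. Windows reached 50 bp to either side of summits, and 100 bp for the printed tRNA genes, a width chosen after the values were seen. Repeated sequence means at least 50% of words of 32 bases found elsewhere in the genome.

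Members were compared with unpartnered peaks by 2-sided Fisher's exact tests with the Benjamini-Hochberg adjustment over 13 features, 16 motifs or all words of 6 bases (threshold 0.05), and intervals are exact Clopper-Pearson. "No partner in either list" was read as lacking both partners, and lacking at least 1 was tried as an alternative. The code of the tests was checked on simulated data with planted differences. Peaks were drawn there independently and without regard to signal, so dependence between peaks was not checked. Python 3.11.15, NumPy 2.4.6, pandas 2.3.3, SciPy 1.17.1 and Matplotlib 3.10.9 were used.

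Named members were the 30 of highest signal, up to 4 genes per list, up to 5 members per kind of small RNA gene, the strongest 3 per annotation class and nhr-179, of which a part is described. The members, gene lists and motifs were chosen with earlier results of these data known, so patterns already seen at optimal peaks, small RNA genes among them, are no independent support. The word GGACCA was chosen after the collagen windows were seen.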

Additional observations from a re-analysis of the deposited data

How the results depend on the processing

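Differences are in percentage points, members minus unpartnered peaks. The tRNA share stayed higher and past the threshold in each alternative run except the 3 by signal: 1.53 in the lower 50%, 4.12 in the upper 50%, and −0.362 between the 40th and 60th percentile. In the same 3 bands the non-coding RNA class gave 1.25, 1.28 and 3.50, and GC-rich windows 7.73, −2.23 and 6.64. The class gave 1.55 with partners by overlap and 0.850 with summits near small RNA genes left out. The percentile band and the restriction to windows of 40% GC or more were added after the data were seen. Without 1 replicate, the tRNA share gave 1.74 to 2.34, against 5.26 with both, the non-coding RNA class 1.22 to 1.59, against 3.48, GC-rich windows gave −0.188 to 8.97, the centre of autosomes −3.60 (adjusted p = 0.0104) to 3.42 (adjusted p = 0.022, both past the threshold by Fisher's exact test), untranslated exons −0.288 to 0.851, chromosome X −0.469 to 1.44, repeated windows 0.305 to 0.761, the higher of which, without replicate 3, passed (adjusted p = 0.0147, Fisher's exact test), members 5121 to 5154, and passing motifs 1 to 3. The number of members was 1291 at 50 bp, 3775 by overlap and 2132 on ce10. The cause of these changes was not tested.

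Other shares that did not pass at first passed as follows: snRNA 0.768 at a partner distance of 50 bp; snoRNA 0.994 at 200 bp, 0.627 against peaks lacking at least 1 partner, 0.900 with 1 summit per overlapping set and 1.03 (adjusted p = 0.0456, Fisher's exact test) within 500 bp of the gene; promoters 8.07 at 200 bp and 10.4 by overlap; intergenic −5.90 at 200 bp; repeated windows 1.35 against peaks lacking at least 1 partner and 1.38 with 1 summit per overlapping set. None of the following reversed shares passed. The centre of autosomes gave 1.44 at 50 bp, 0.544 at 200 bp, 3.98 by overlap, 0.750 against peaks lacking at least 1 partner, 0.598 in the lower 50%, 1.71 in the percentile band and 1.27 in GC-rich windows. Chromosome X gave −2.18 at 200 bp and −3.21 by overlap. Repeated windows gave −0.0600 at 200 bp, −0.0108 by overlap and −0.104 without small RNA genes. Coding exons gave −0.00202 against peaks lacking at least 1 partner, −5.53 in the upper 50% and −5.99 in GC-rich windows. Introns gave 2.81 in the lower 50%. In the upper 50%, snRNA gave −0.0976, promoters −3.86, untranslated exons −0.707, intergenic 7.39 and TTTTTTT 0.861. In the percentile band, snoRNA gave −0.120, snRNA −0.120 and untranslated exons −0.417. In GC-rich windows, untranslated exons gave −0.409 and intergenic 1.38. Passing motifs numbered 0 in either 50% and at 30% to 45% GC, 1 at 200 bp, by overlap, without the strongest peaks, without small RNA genes or without repeated windows, and 4 on autosomes or in wider windows. GGTTCGA gave 0.509 without replicate 2, and TTTTTTT −1.14 without replicate 3 and −1.41 in narrower windows, none of which passed. GGTTCGA did not pass in 9 alternatives and TTTTTTT in 4, beside the 1 where it reversed. Passing words on I to III numbered 2 without repeated windows, and those on IV, V and X 52 without replicate 3, 58 in wider windows and 6 against peaks lacking at least 1 partner, with none passing on both sides. No paired analysis was possible because both replicates belong to 1 group.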
